A study of Mus musculus with 26 samples.

Results

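Genes with no classical role in fat synthesis, Sorcs2, Prss35, Gprin2, Susd1, Mapk8ip1 and Cables1, had lower RNA levels in subcutaneous fat of mice lacking the glucose-responsive transcription factor ChREBP and also in mice lacking only its short isoform, ChREBPβ. These 6 genes were chosen by the values described here: in an earlier look at the same arrays each had a probe that was lower at an adjusted p of 0.05 in both knockout comparisons. Their levels in those comparisons are therefore a description, and no test of them is given. They are 6 of the 25407 gene names that could be tested, out of 37074 gene names on the array. A probe is a short DNA strand on the array that captures 1 RNA sequence, and 18 probes carried the names of these genes. Of these, 15 passed the filter on spot quality and brightness and were tested. For Susd1, the loss in mice lacking only ChREBPβ rested on 1 of its 4 tested probes.

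The tissue was inguinal white fat, a subcutaneous depot, and each of 26 arrays with a single dye held the RNA of 1 mouse. All mice, including the controls, went without food for 24 h before refeeding, which lasted 18 h and included 20% glucose in the drinking water. Total ChREBP KO mice (n = 7) were Mlxipl-null in every tissue and so lacked both isoforms, ChREBPα and ChREBPβ. They were compared with WT mice of the total line (n = 7). ChREBPβ KO mice (n = 5) carried a Cas9-made deletion of the exon used only by ChREBPβ, also in every tissue, and retained ChREBPα. They were compared with WT littermates of the ChREBPβ line (n = 7). All were C57BL6/J males per the methods of the study, and their age was not given in the sources used here. The study derived several edited lines per strain, and the labels do not say which line a mouse came from.

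ChREBP is encoded by Mlxipl and, with its partner Mlx, activates genes of glycolysis and fatty acid synthesis when glucose is plentiful. ChREBPα is held back at low glucose, while ChREBPβ lacks most of the inhibitory part and starts from a promoter that ChREBP itself can activate. The genes described here fall outside that lipid programme. Sorcs2 is a sorting receptor of the VPS10 family, best known in neurons, where it acts with the neurotrophin receptor p75. Susd1 encodes a membrane protein with sushi and EGF-like domains. Prss35 encodes a secreted member of the trypsin-like protease family. Mapk8ip1, also known as JIP1, is a scaffold that holds the kinases of the JNK cascade together and links cargo to kinesin motors. Gprin2 binds activated G protein alpha subunits of the Go and Gi class. Cables1 links cyclin-dependent kinases to the tyrosine kinase Abl1.

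The probe through which each gene is mainly described, its lead probe, was the tested probe with the lowest p in the ChREBPβ KO comparison, which is again a choice made on the outcome. In each gene with several tested probes it was also the brightest one. All probes were 60 bases long. The positions are those of the array annotation in mouse build mm9. The sequences are shown so that the measured part of each transcript can be found: the first 30 bases of 4 lead probes, and the Susd1 lead probe in full because probes of that gene disagreed. No base is marked by capitals in these 5 lines.
Sorcs2 A_55_P2812793, chr5:36359872-36359931, minus strand: tacctgacatgtgggcatagcagaggtgat
Prss35 A_66_P109981, chr9:86651515-86651574, plus strand: gcaaaggagcatcttcactgggtatcataa
Gprin2 A_66_P129006, chr14:35002299-35002358, minus strand: attgctgaggcaggcacaagtcagcaagga
Mapk8ip1 A_55_P2074836, chr2:92223837-92223896, minus strand: tggccccagccagccggtcactgtcttgtc
Susd1 A_66_P111070, chr4:59378748-59382423, minus strand: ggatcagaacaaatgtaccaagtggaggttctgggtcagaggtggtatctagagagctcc
The Susd1 probe matched a span of 3676 bases in the genome, so it crossed at least 1 splice junction, while the others lay in 1 block of 60 bases. Which exon or untranslated region holds a probe was not given in the annotation used here. None of the 6 lead probes shared a run of 20 bases, on either strand, with any other probe on the array.

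A promoter sequence from RefSeq (GRCm38.p6, 250 bases before and 50 after the start) was at hand for 3 of the 6 genes, Susd1, Prss35 and Gprin2. The windows were searched for CACGTG, the palindromic E-box that reads the same on both strands, and for CACGTGNNNNNCACGTG, a pair of perfect E-boxes 5 bases apart. The pair served as a strict stand-in for the carbohydrate response element that ChREBP and Mlx bind. The first motif occurred in 7.15% of all 32851 promoter windows of 300 bases, and the second in none of them. The search for the pair could therefore not set any gene apart. Of the 3 genes only Susd1 held an E-box, 1 copy starting 164 bases before the start. It is printed in capitals in the 250 bases upstream of the Susd1 start, because it is the only match among the members. A match describes the letters of this window and shows no binding, and the missing matches say only that these letters were not in these windows.
Susd1, chr4:59438634-59438883, minus strand: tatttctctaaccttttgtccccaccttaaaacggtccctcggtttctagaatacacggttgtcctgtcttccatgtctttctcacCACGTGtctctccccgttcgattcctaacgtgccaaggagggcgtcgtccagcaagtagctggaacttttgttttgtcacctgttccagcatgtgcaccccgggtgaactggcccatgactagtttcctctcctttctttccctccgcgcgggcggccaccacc

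Signals are log2 intensities after quantile normalization, so a difference of 1 is a 2-fold change, and levels of different probes cannot be ranked against each other. Between 70.2% and 76.5% of the spots of an array were well above background, and no spot was saturated. Mlxipl probe A_55_P2119957 differed from WT by -2.29 ± 0.12 (log2, SE) in total ChREBP KO and by -1.52 ± 0.13 in ChREBPβ KO, without any overlap of KO with WT arrays, whereas probe A_55_P2045158 differed by -0.13 ± 0.07 and 0.04 ± 0.08. Another Mlxipl probe, A_55_P2728555, read lower in both KO groups by less than A_55_P2119957, also without overlap of KO with WT arrays. The ChREBPβ deletion removed the first exon of the ChREBPβ transcript, and the annotation places these probes far downstream of a transcript start. For total ChREBP KO, whether they lie inside the deleted sequence was not given. The probes therefore check the labels only as far as transcript level goes. All 13 adipocyte markers were well above background on every array, and 12 of them were higher in total ChREBP KO. Other cell types moved with the groups: 15 of 15 lymphocyte markers were lower in total ChREBP KO than in its WT, and 15 of 15 were lower in WT of the ChREBPβ line than in WT of the total line, while none passed the test in ChREBPβ KO. The lymphocyte score, the mean log2 intensity of these markers on an array, ran from 11.04 to 12.7 in WT of the total line, from 8.017 to 11.41 in total ChREBP KO, from 7.324 to 9.031 in ChREBPβ KO and from 7.385 to 8.349 in its WT. All 15 were well above background on every array. The skeletal muscle score, over 12 markers of which 9 were above background on every array, ran from 6.725 to 12.05, 6.752 to 13.36, 7.068 to 12.9 and 6.663 to 12.27 in the same order. In whole tissue, fewer cells of a type and less RNA per cell cannot be told apart.

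Measured from the WT of its own line, Sorcs2 fell far in total ChREBP KO and by less in ChREBPβ KO. In WT of the total line its lead probe read between 11.2 and 13, with a median of 12.47, and in total ChREBP KO between 7.11 and 8.04, with a median of 7.46. The KO and WT arrays were thus far apart, with 3.59% of the WT level left in the KO (log2 difference -4.80 ± 0.29, SE). In WT of the ChREBPβ line the probe read between 8.69 and 10.94, with a median of 9.82, and the 5 ChREBPβ KO mice read 7.33, 7.53, 7.73, 8.27 and 8.78. The highest of these lay above the lowest WT array, so the groups overlapped slightly. The ChREBPβ difference was -1.90 ± 0.32, which leaves 26.8% of the WT level. On all 26 arrays the probe was well above background.

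Susd1 fell in separate steps by its lead probe. It read 8.06 to 8.68 with a median of 8.26 in WT of the total line and 5.65 to 6.37 with a median of 5.88 in total ChREBP KO, a difference of -2.36 ± 0.15 (19.5% of WT). In WT of the ChREBPβ line it read 7.51 to 8.47 with a median of 7.94, and in the 5 ChREBPβ KO mice 6.5, 6.93, 7.11, 7.14 and 7.17, a difference of -1.01 ± 0.16 (49.7% of WT). No KO array reached a WT array of its line, and all ChREBPβ KO arrays lay above all total ChREBP KO arrays.

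By its lead probe, Prss35 went below detection in total ChREBP KO. Its lead probe read 8.43 to 9.93 with a median of 9.01 in WT of the total line and 4.37 to 4.62 in the total ChREBP KO, where 0 of 7 arrays had it well above background. The KO level is therefore a bound, and on the scale used here WT was at least 21.1-fold higher. This was set against the higher of the probe's own signal and the lowest signal well above background on each KO array. This bound and those below hold only for signals without background subtraction. The measured difference ranged with the handling of background from -3.209 after normexp correction to -7.233 with the scanner's background-subtracted signal. In the ChREBPβ line the WT arrays read 6.63 to 8.68 with a median of 7.95, and the 5 KO arrays 4.97, 5.5, 5.53, 6.26 and 6.32, all well above background. They lay below every WT array and above every total ChREBP KO array. The ChREBPβ difference was -2.01 ± 0.30, or 24.8% of WT.

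Mapk8ip1 was among the bright probes. The lead probe read 12.32 to 13.21 with a median of 12.89 in WT of the total line and 10.28 to 10.62 with a median of 10.58 in total ChREBP KO, a difference of -2.30 ± 0.17 (20.3% of WT). In WT of the ChREBPβ line it read 11.84 to 13.08 with a median of 12.35, and in ChREBPβ KO 11.12, 11.2, 11.25, 11.5 and 11.82. The highest KO array came within 0.02 of the lowest WT array without crossing it. The ChREBPβ difference was -0.9999 ± 0.18, which leaves 50% of the WT level.

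Gprin2 was dim. Its lead probe was well above background on all 14 WT arrays, at 5.23 to 5.48 with a median of 5.36 in the total line and 4.97 to 5.88 with a median of 5.43 in the ChREBPβ line. On 0 of 12 KO arrays was it well above background, and these read 4.12 to 4.54 in total ChREBP KO and 4.36, 4.43, 4.44, 4.46 and 4.49 in ChREBPβ KO. Since the KO level is a bound in both lines, on this scale WT was at least 1.72-fold higher than total ChREBP KO and at least 1.77-fold higher than ChREBPβ KO. The measured differences were -1.07 ± 0.10 and -0.95 ± 0.11, and they depended on how background was handled: they were -3.65 and -2.80 with the scanner's background-subtracted signal and -0.48 and -0.40 after normexp correction.

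Cables1 was bright in every group. Its single probe, A_51_P117581, read 13.06 to 13.69 with a median of 13.44 in WT of the total line and 12.09 to 12.55 with a median of 12.38 in total ChREBP KO, a difference of -1.07 ± 0.10 (47.6% of WT). In WT of the ChREBPβ line it read 13.04 to 13.57 with a median of 13.18, and in ChREBPβ KO 12.28, 12.53, 12.66, 12.8 and 12.84, a difference of -0.63 ± 0.11 (64.7% of WT). The KO arrays stayed below the WT arrays of their own line throughout, while the ranges of ChREBPβ KO and total ChREBP KO overlapped.

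**Figure D1:**
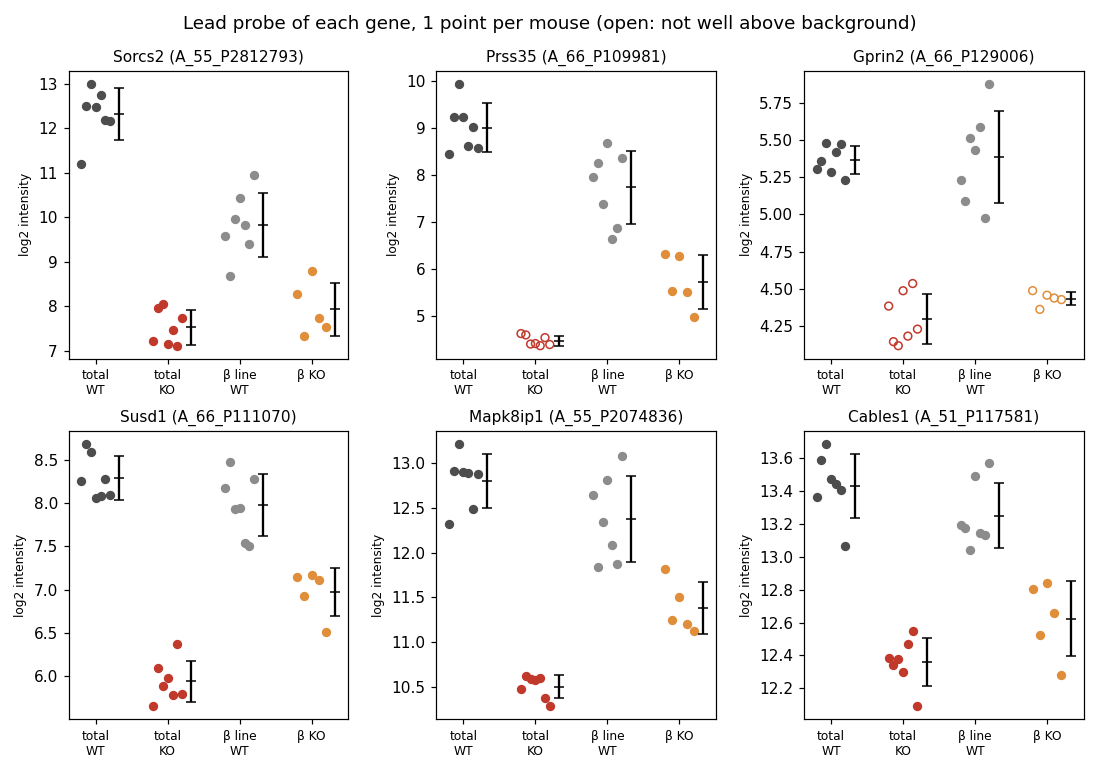
Log2 intensity of the lead probe of each gene (y axis, separate scale per panel) in the 4 groups (x axis), 1 point per mouse, with the mean and SD as bars and open points where the spot was not well above background. In each panel the KO points lie below the WT points of their line, except for 1 ChREBPβ KO array of Sorcs2 above the lowest WT array, and the Prss35 points of total ChREBP KO and all Gprin2 KO points are open.

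The loss was graded in 5 of the 6 genes. The ChREBPβ effect minus the total effect, both as log2 differences, was 2.90 for Sorcs2 (95% interval 2.00 to 3.81), 2.51 for Prss35 (1.66 to 3.37), 1.35 for Susd1 (0.90 to 1.80), 1.30 for Mapk8ip1 (0.79 to 1.81) and 0.44 for Cables1 (0.13 to 0.75). For Gprin2 it was only 0.12, but both of its KO groups lay at background, where a further loss cannot be seen. The Prss35 value is likewise limited by a total ChREBP KO group at background. On the log2 scale the ChREBPβ loss was 39.6% of the total loss for Sorcs2, 42.8% for Susd1, 43.5% for Mapk8ip1, 44.5% for Prss35 and 58.6% for Cables1. Both effects entered the choice of the genes, so these sizes carry no test. They also depend on the difference between the WT groups of the 2 lines, given further on. For Sorcs2 that difference was -2.499, while mean levels were 7.53 in total ChREBP KO and 7.93 in ChREBPβ KO. The Sorcs2 value of 2.90 thus came mostly from the difference between the WT groups. For Prss35 it was -1.27, with means of 4.47 in total ChREBP KO, at background, and 5.72 in ChREBPβ KO. It was smaller in size for the other genes.

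All 6 lead probes were called lower in both comparisons, which the choice fixed. Over all 38832 tested probes, 19.5% were called lower and 26% higher in total ChREBP KO, against 0.0335% lower (13 probes) and 0.00515% higher (2 probes) in ChREBPβ KO. Every KO array lay below every WT array in 4.51% of all probes in total ChREBP KO and in 0.27% in ChREBPβ KO. The 13 probes called lower in ChREBPβ KO were all lower in total ChREBP KO too, and beside the 6 lead probes they belonged to Mlxipl, Hk2, Vps37d, Adcy10, Tkt and Nat8l. The calls just inside the threshold in ChREBPβ KO were Tkt (-1.13) and Nat8l (-0.88), and the probes just outside were those of Cpeb2 (-0.98), Gucd1 (-0.62), Gm35986 (-1.54), Slmo1 (-0.78) and the second Prss35 probe A_55_P2111985 (-0.76). The ChREBPβ calls rested on the spread shared by all 4 groups: in a fit of the ChREBPβ line alone none of the 6 was called, and without ChREBPβ KO replicate 6 only 1 was. The sizes moved less, since leaving out any 1 array kept them between -0.54 and -2.20. With the lymphocyte and skeletal muscle scores as covariates the 6 differences were -1.16 to -4.74 in total ChREBP KO and -0.62 to -1.998 in ChREBPβ KO.

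Other probes of the same genes gave the same direction with smaller sizes, apart from Susd1. Sorcs2 probes A_66_P111543 and A_52_P279845, which the annotation ties to an Ensembl transcript or to cDNA clones and which lie upstream of the lead probe, differed by -2.89 ± 0.24 and -2.44 ± 0.20 in total ChREBP KO and by -0.93 ± 0.26 and -0.60 ± 0.22 in ChREBPβ KO. Probe A_52_P279845 was well above background on 3 of the 7 and 3 of the 5 KO arrays. The fourth Sorcs2 probe, A_55_P2042151, did not pass the spot filter, and in the authors' table its group means differed by -0.92 and -0.12. For Prss35, probe A_55_P2111985 differed by -1.90 ± 0.14 and -0.76 ± 0.15 with all 12 KO arrays at background, so WT was at least 3.22-fold higher than total ChREBP KO and at least 1.52-fold higher than ChREBPβ KO, and probe A_66_P121940 differed by -0.76 ± 0.11 and -0.24 ± 0.13. The other Mapk8ip1 probe, A_52_P349477, was close to its lead with -1.80 ± 0.19 and -0.98 ± 0.20. The second Gprin2 probe, A_66_P105080, differed by -0.50 ± 0.11 and -0.40 ± 0.12, with 0 of 7 total ChREBP KO arrays above background (WT at least 1.27-fold higher) and 2 of 5 ChREBPβ KO arrays, and Gprin2 probe A_55_P2121677 was above background on 0 arrays. In Sorcs2, Prss35, Gprin2 and Mapk8ip1 the lead probe lay nearest to the 3′ end of the gene among the probes on the array.

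The probes of Susd1 parted in ChREBPβ KO. The lead probe is the only one of its 5 probes that the annotation places on a curated RefSeq mRNA, and it lies furthest to the 5′ side. Probes A_51_P228073 (chr4:59344907-59344966), A_65_P02347 (chr4:59342325-59342384) and A_55_P2922037 (chr4:59327301-59327360) are tied to Ensembl transcripts, cDNA clones or predicted RefSeq transcripts. They differed by -1.10 ± 0.20, -0.69 ± 0.14 and -0.41 ± 0.17 in total ChREBP KO, but by 0.10 ± 0.22, 0.05 ± 0.15 and -0.04 ± 0.19 in ChREBPβ KO. All 3 were well above background on all 26 arrays, and the fifth probe, A_55_P2149630, on 0. Within groups, the array-to-array deviations of these 3 probes ran against those of the lead probe (r = -0.58, -0.29 and -0.47, as a description over 26 arrays). By contrast the deviations of the other tested probes ran with those of their lead, from r = 0.37 for Gprin2 to r = 0.88 for Sorcs2. The loss of Susd1 in ChREBPβ KO therefore rests on 1 of its 4 tested probes.

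**Figure D2:**
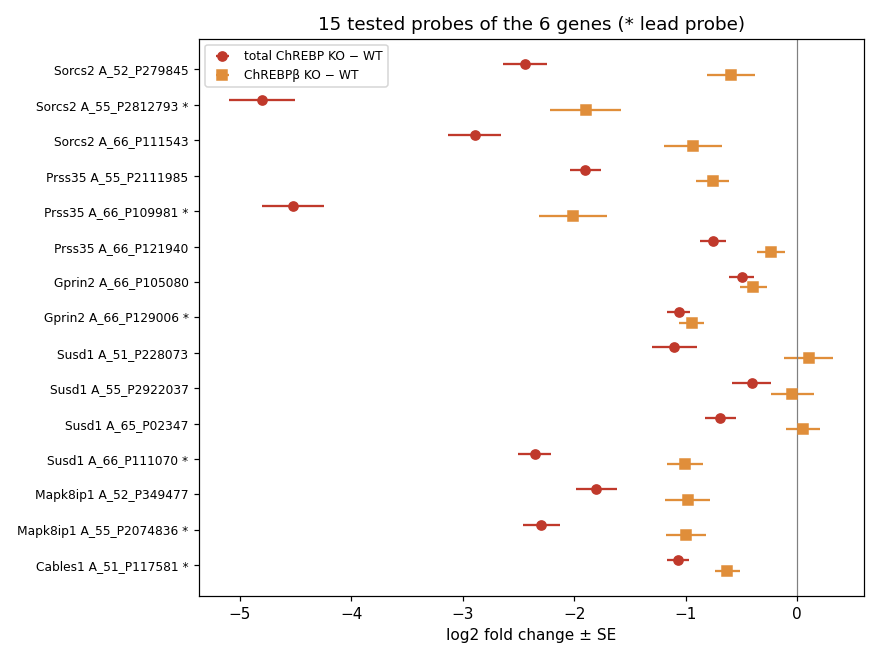
Log2 fold change ± SE (x axis) of the 15 tested probes of the 6 genes (y axis, lead probes marked by an asterisk) in total ChREBP KO (circles, 7 against 7 mice) and ChREBPβ KO (squares, 5 against 7 mice). Every circle lies below 0, while the squares of the 3 Susd1 probes other than the lead probe lie at 0.10, -0.04 and 0.05.

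The WT mice of both lines were compared next. This contrast did not itself choose the genes, but its arrays are the controls of both choosing comparisons. Its p-values are therefore not independent of the choice and are given as a description. Sorcs2 was lower in WT of the ChREBPβ line (log2 difference -2.499 ± 0.29, limma adjusted p = 2.65e-07), a 5.65-fold difference with no overlap between the 7 and 7 arrays. Prss35 was lower too (-1.27 ± 0.28, 2.42-fold, limma adjusted p = 0.000541), with overlapping arrays. Mapk8ip1 was lower by less (-0.42 ± 0.17, 1.34-fold, limma adjusted p = 0.0423). The other members did not pass the test: Susd1 differed by -0.31 ± 0.15 (limma adjusted p = 0.0844), Cables1 by -0.18 ± 0.10 (0.147) and Gprin2 by 0.02 ± 0.10 (0.889). These 3 of 6 stand against a background of 19.8% of all tested probes called lower and 25.7% called higher between the WT groups. WT mice of the ChREBPβ line thus held Sorcs2 at levels between those of WT and total ChREBP KO mice of the other line. Both other tested Sorcs2 probes were also lower, at -1.88 ± 0.24 (A_66_P111543, limma adjusted p = 6.81e-07) and -1.56 ± 0.20 (A_52_P279845, 7.82e-07), while the second Mapk8ip1 probe A_52_P349477 differed by -0.12 ± 0.19 (limma adjusted p = 0.626).

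The differences of Sorcs2 and Prss35 between the WT groups were present within each of the 4 wash batches that the labels name, at -2.06 to -3.22 and at -1.02 to -2.06. A wash batch held few WT arrays, in places only 1 of a group, so these are differences between few mice. The Mapk8ip1 call depended on settings: within the wash batches its difference ran from -0.08 to -1.03, and the call was lost in a fit of the WT arrays alone, with the replicate block, without a filter on dim probes, under scaling to the 75th percentile and without any 1 of several WT arrays. Under the scaling of median intensities to the 75th percentile Susd1 passed instead (-0.39, limma adjusted p = 0.0256), as it did with wash batch as a fixed block (-0.35, limma adjusted p = 0.0421). With slide as a fixed block Prss35 was at -1.001 (limma adjusted p = 0.0892), while Sorcs2 was still called. With the lymphocyte and skeletal muscle scores as covariates none of the 6 passed, with Sorcs2 at -1.76 (limma adjusted p = 0.103) and Prss35 at -1.70 (0.106), in a fit that called 1364 probes instead of 17644. Of 9 beige adipocyte markers, 8 were lower and 1 was higher in WT of the ChREBPβ line, led by the uncoupling protein Ucp1 at -6.84 ± 0.75. In total ChREBP KO, 5 of the 9 were lower and 1 was higher. Their score ran from 11.16 to 13.27 in WT of the total line, from 10.58 to 11.32 in total ChREBP KO, from 9.543 to 10.26 in ChREBPβ KO and from 9.619 to 11.06 in its WT, and all 9 were well above background on every array. Their part in the levels of the 6 genes was not tested. The beige markers did not pass the test in ChREBPβ KO (0 of 9).

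**Figure D3:**
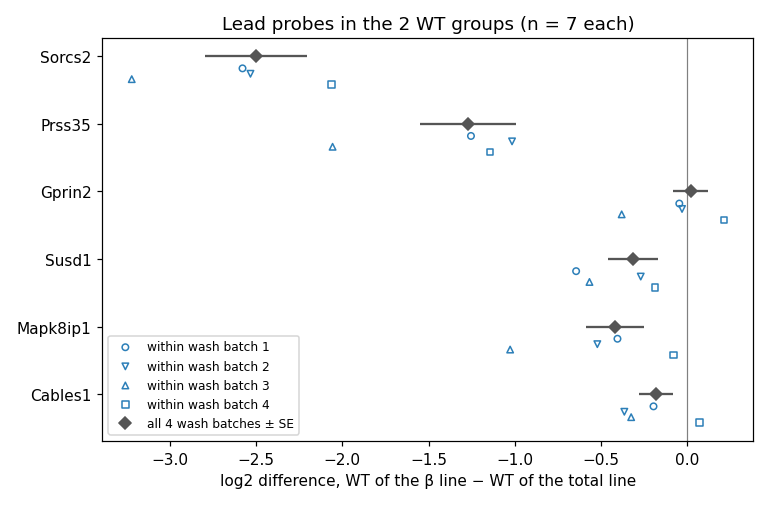
Log2 difference between WT mice of the ChREBPβ line and WT mice of the total line (x axis) for the 6 lead probes (y axis), as the fitted value ± SE over 7 and 7 arrays (diamonds) and as the difference of means within each of the 4 wash batches (open symbols). The Sorcs2 and Prss35 symbols all lie below -1, and the Gprin2 and Cables1 symbols fall on both sides of 0. A wash batch held few WT arrays, in places only 1 of a group.

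Within groups, mouse-to-mouse variation of the 6 genes was set against that of Mlxipl and of both tissue scores. Deviations from the group means were compared over 26 arrays by permutation within groups (two-sided, 100000 resamples, adjusted over 18 relations). The choice of the genes used the spread of these deviations, through its p-values, but not their relation to Mlxipl or the scores. Cables1 varied with Mlxipl (r = 0.73, adjusted p = 0.0027, Spearman's rho = 0.748, adjusted p = 0.00252 by permutation). Without the 2 arrays whose Mlxipl deviation was farthest from the median, r was 0.63 (permutation adjusted p = 0.0299), and it was 0.882, 0.76 and 0.828 within WT of the total line, total ChREBP KO and WT of the ChREBPβ line. The share of all tested probes that varied with Mlxipl in this way was not examined, so no relation here sets a gene apart.

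Mapk8ip1 (r = 0.681, permutation adjusted p = 0.0153) and Gprin2 (r = 0.624, permutation adjusted p = 0.0191) also passed with Pearson's r. They did not pass with Spearman's rho (0.534 and 0.482, permutation adjusted p = 0.132 for both) or without the 2 farthest arrays (r = 0.52 and 0.477, permutation adjusted p = 0.192 for both). Sorcs2 (r = 0.54, rho = 0.376, permutation adjusted p = 0.0715 and 0.282), Prss35 (r = 0.505, rho = 0.486, permutation adjusted p = 0.128 and 0.139) and Susd1 (r = 0.288, rho = 0.28, permutation adjusted p = 0.404 and 0.436) did not pass. Within WT of the ChREBPβ line alone, Sorcs2 and Mapk8ip1 followed Mlxipl with r = 0.963 and 0.934 (exact permutation, adjusted p = 0.0214 and 0.0107), whereas in total ChREBP KO the same relations had r = -0.628 and -0.135. In total ChREBP KO Sorcs2 followed the lymphocyte score with r = 0.92 but did not pass (exact permutation, adjusted p = 0.132), and in WT of the total line this r was -0.509. Over all groups, none of the 12 relations with the lymphocyte or muscle score passed, with r between -0.282 and 0.256 and permutation adjusted p of at least 0.324.

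**Figure D4:**
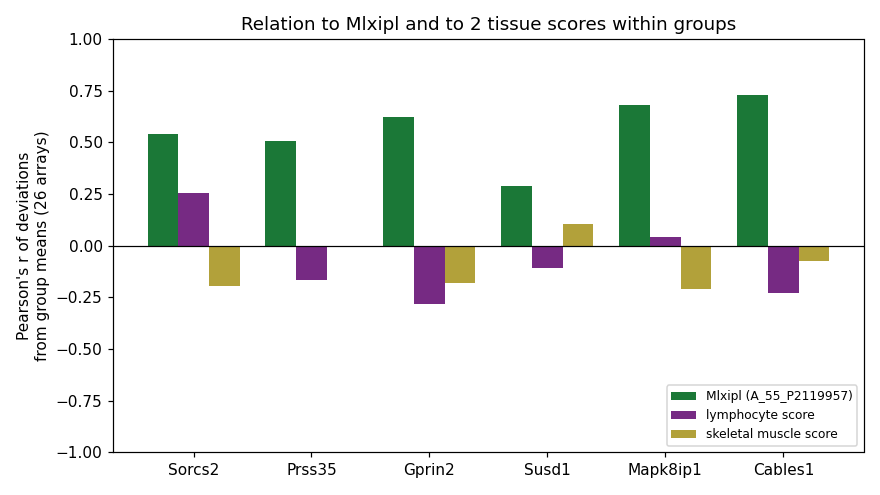
Pearson's r (y axis, from -1 to 1) between deviations from the group means of each gene's lead probe (x axis) and those of Mlxipl probe A_55_P2119957, the lymphocyte score and the skeletal muscle score, over 26 arrays. The Mlxipl bars run from 0.288 for Susd1 to 0.73 for Cables1, and the bars of both tissue scores stay between -0.282 and 0.256.

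The members also varied together to different degrees, which is given as a description since all values come from the same arrays. Sorcs2 and Mapk8ip1 had r = 0.78, Prss35 and Cables1 0.72, and Prss35 and Susd1 0.70, while Sorcs2 and Susd1 had r = 0.12. Over 17298 genes with a symbol in the reference, the 3 whose deviations were most like those of each lead probe were found. For Sorcs2 these were Pim1, a survival kinase, Acot11, a thioesterase of brown fat, and Lman1, a cargo receptor of the secretory pathway (r = 0.85, 0.84 and 0.83). For Prss35 they were Ccdc57, Rnls and the glycogen branching enzyme Gbe1 (r = 0.91, 0.90 and 0.88). For Susd1 they were Olfr60, Gm12070 and the acetyl-CoA synthetase Acss2 (r = 0.83, 0.82 and 0.82).

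For Mapk8ip1 the most alike were the neurotrophic factor Nrtn, the mitochondrial citrate carrier Slc25a1 and the autophagy gene Atg9b (r = 0.89, 0.88 and 0.85). For Cables1 they were the thioredoxin reductase Txnrd1, the insulin receptor adaptor Sh2b2 and the glycolytic enzyme Pfkl (r = 0.90, 0.88 and 0.87). For Gprin2 they were Tbx1, the proton channel Otop1 and Trmt2b (r = 0.80, 0.77 and 0.73), of which Tbx1 and Otop1 are known from beige fat. Of these 18 genes, 14 were called lower in total ChREBP KO, where 19.5% of all tested probes were, and 0 in ChREBPβ KO, where 0.0335% were.

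Relatives and known partners of the 6 genes were called about as often as all probes in total ChREBP KO. From lists of 48 such genes, 45 were tested, of which 9 were lower and 13 were higher, beside 19.5% and 26% of all tested probes. In ChREBPβ KO 0 were called by limma, beside 0.0335% of all tested probes called lower and 0.00515% called higher. Among the VPS10 receptors and their neurotrophin side, 3 of 8 were lower and 2 were higher in total ChREBP KO, with a median log2 difference of 0.01 beside 0.047 over all probes. The receptor Sorl1 fell by 1.46 ± 0.19 (limma adjusted p = 1.11e-06), its relative Sort1 was higher by 0.76 ± 0.08 (6.23e-08), and the p75 receptor Ngfr fell by 0.61 ± 0.14 (0.00115). In ChREBPβ KO these 3 differed by -0.35 ± 0.21, 0.11 ± 0.09 and -0.02 ± 0.16.

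In the JNK module, 3 of 13 genes were lower and 5 were higher in total ChREBP KO, with a median of 0.12, again beside 19.5% lower and 26% higher over all tested probes. The other JIP scaffolds, Mapk8ip2 and Mapk8ip3, fell by 0.34 ± 0.13 (limma adjusted p = 0.0298) and 0.27 ± 0.08 (0.00645), and the upstream kinase Map3k10 was higher by 0.78 ± 0.08 (1.99e-08). Of the JNK kinases themselves, Mapk8 fell by 0.15 ± 0.06 (limma adjusted p = 0.0333), while Mapk9 was higher by 0.31 ± 0.06 (0.000262) and Mapk10 by 0.39 ± 0.12 (0.00774). Gprin1 and Gprin3, the relatives of Gprin2, were higher, by 1.51 ± 0.24 (limma adjusted p = 1.92e-05) and 0.75 ± 0.17 (0.000972), opposite to Gprin2, with Gprin1 well above background on 22 of 26 arrays. Of the 7 genes in that list 3 were higher and 0 lower.

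Of the 6 tested partners of Cables1, Cdk5 was higher by 0.44 ± 0.08 (limma adjusted p = 9.13e-05), its activator Cdk5r1 fell by 0.42 ± 0.10 (0.00154) and Abl1 was higher by 0.18 ± 0.06 (0.0217), while the relative Cables2 differed by -0.17 ± 0.09 (0.119). Among 5 sushi domain genes, Susd3 fell by 1.47 ± 0.25 (limma adjusted p = 3.47e-05) and Susd2 by 0.27 ± 0.09 (0.0225). Of 6 serine proteases related to Prss35 only Prss36 passed, higher by 0.37 ± 0.09 (limma adjusted p = 0.00195), and its closest relative Prss23 differed by 0.21 ± 0.16 (0.283).

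The lipid and sugar targets of ChREBP were examined beside the members. Of 20 tested targets, 14 were lower and 1 was higher in total ChREBP KO (median -1), beside 19.5% and 26% of all tested probes. In ChREBPβ KO 0 of 20 were called by their brightest probe (median -0.19). There only 0.0335% of all tested probes were called lower and 0.00515% higher, so a count of 0 does not set the targets apart. Elovl6, an elongase of fatty acids, fell by 3.30 ± 0.14 in total ChREBP KO (limma adjusted p = 7.28e-15) and differed by -0.43 ± 0.15 in ChREBPβ KO (0.444). Acly, which makes cytosolic acetyl-CoA, fell by 2.29 ± 0.09 (limma adjusted p = 4.13e-15) and differed by -0.24 ± 0.10 (0.556) in ChREBPβ KO. By their brightest probe the targets Rgs16 and Slc2a5 differed by -0.97 ± 0.26 and -1.84 ± 0.48 in ChREBPβ KO, the latter well above background on 21 of 26 arrays. Tkt, a transketolase, differed by -0.42 ± 0.09 by its brightest probe, whereas its probe A_52_P631197 was called lower at -1.13. The members lay between -0.63 and -2.01, but their probes were chosen for the lowest p and those of the targets for brightness, so the sizes are given side by side without a ranking.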

How the data were processed

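RNA of 26 mice was hybridised to 1-colour Agilent arrays. The authors scanned them with Feature Extraction 10.10.1.1 and deposited spot intensity values on a linear scale with quality calls, and also a table of log2 values made by a spot filter, quantile normalization and the median of replicate spots. Genes, positions and probe sequences are other columns of the deposited scanner files. Here the steps of the study were repeated on median pixel intensities without background subtraction. A probe was kept if its spot was found, was significantly positive and lay well above background on 21 of 26 arrays or on 75% of the arrays of 1 group (26 of 32 in the methods). Outlier spots (97 values) were set to missing, the median of replicate spots was taken, and values were quantile normalized. The result differed from the authors' log2 values by a median of 0.000782 and at most 0.0822 over 38499 shared probes. The authors' table was an alternative.

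A single model of 4 group means (22 residual degrees of freedom) was fitted with limma 3.58.1 in R 4.3.3, with Benjamini-Hochberg adjustment over 38832 probes and a threshold of 0.05. It was tested on simulated data. Groups came from the labels. Arrays are single mice, and their number limits the precision. Relations were permuted within groups in Python 3.11.15. The members, lists and tests were chosen with earlier results of these data known. The genes named beside the members were their 3 nearest by deviation and the genes of fixed lists; a list gene is represented by its brightest probe. Nerve (1 lower and 1 higher of 10), macrophage (3 lower of 10) and epithelial markers (0 of 6) were also examined in total ChREBP KO, and none passed in ChREBPβ KO. Alternatives covered background correction, scaling, filters, batches, pairing, covariates, probe choice and each array left out. Cables1 and its probe are given without sequence.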

Additional observations from a re-analysis of the deposited data

How the results depend on the processing

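The 6 members were lower in total ChREBP KO in all settings run. In ChREBPβ KO the count of 6 fell to 0 with slide as a fixed block, to 0 in a fit of the groups compared alone and to 2 with the replicate block, and was 4 under both scalings to the 75th percentile. It ran from 1 to 6 when single arrays were left out: 1 without ChREBPβ KO replicate 6, and 3 each without ChREBPβ KO replicate 2, ChREBPβ KO replicate 5 or ChREBPβ WT replicate 4. Replicate numbers are shared between groups, and same-numbered mice of a line deviated together to varying degrees (r = -0.355 to 0.508). The labels do not say what a shared number means. The replicate block took away no call in total ChREBP KO, unlike in ChREBPβ KO. Between the WT groups the count of 3 fell to 1 with slide as a fixed block and to 0 with the tissue scores as covariates, and was 2 to 3 when single arrays were left out. Of the 18 relations 3 passed, against 1 with Spearman's rho (chosen after seeing the data), 1 without the 2 farthest arrays, and 0, 0 and 2 within WT of the total line, total ChREBP KO and WT of the ChREBPβ line, where the 2 were Mapk8ip1 and Sorcs2, the latter not among the 3. The median difference between both KO effects was 1.323 and ran from 1.152 to 1.5, and from 1.241 to 1.414 without single arrays. The difference of Gprin2 between WT groups, 0.02 and not called, turned to -0.016 with normexp, -0.191 and -0.217 with both 75th percentile scalings, -0.087 with slide as a fixed block, -0.020 with array weights, -0.222 with the covariates, -0.047, -0.031 and -0.381 within wash batches 1, 2 and 3, and ran from -0.061 to 0.089 with single arrays left out. Cables1 turned to 0.070 within wash batch 4. The causes were not tested. Signal over background limits the lead probes of Gprin2 and Prss35. Their levels are bounds in both KO groups for Gprin2 and in total ChREBP KO for Prss35.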
